A study of Mus musculus with 6 samples.

Results

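The tumour suppressor p53 (gene Trp53) and 9 genes that it is known to activate were followed in 3 mouse pancreatic tumour organoid lines. The genes were taken by symbol from the GRCm38 annotation: Trp53, Cdkn1a, Mdm2, Ccng1, Zmat3, Phlda3, Eda2r, Trp53inp1, Aen and Gdf15, 10 of the 54453 genes in the tables. All 10 symbols were found, each with 1 identifier, and 9 had enough counts to be tested. Eda2r did not. The lines T91, T113 and T118 are of the KPC kind, named after a set of engineered mice that develop pancreatic ductal adenocarcinoma, and were grown in Matrigel. Each line carried either a short hairpin RNA against Renilla luciferase (the control, 3 libraries) or hairpin number 5523 against Scrib (3 libraries). Every line thus gave 1 library per hairpin. Only 1 hairpin against Scrib was used, so its effects on other RNAs cannot be told apart from those of less Scrib. The T91 organoids came from a female at passage 10, and those of T118 and T113 from males at passages 11 and 13. The sample labels speak of viral infection for the hairpins, the series' design text of transfected plasmids.

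All 6 libraries share the genotype label KPF/FC, which the sources used here do not spell out. KPC models carry a changed Trp53 allele in the pancreatic epithelium, in some models a missense allele and in others a floxed one that loses internal exons after Cre recombination. Which Trp53 allele these lines carry, and what drives Cre, is not given in the sources used here. No library is labelled as p53-intact, so the target levels below have no wild-type reference. The gene-level estimates also do not tell a shortened or missense Trp53 transcript from a normal one.

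In a normal cell p53 protein is kept low by Mdm2, a ubiquitin ligase whose own gene p53 activates. DNA damage, oncogene signalling or ribosome stress frees p53 from Mdm2, and p53 then binds DNA as a tetramer and switches on genes for cell cycle arrest, repair, feedback and death. Cdkn1a, which encodes the cyclin-dependent kinase inhibitor p21, is the best known of these genes. In pancreatic cancer the p53 branch is lost in most tumours, and Arf, a product of Cdkn2a, acts upstream by blocking Mdm2.

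The DNA that p53 recognises is a pair of decamer half-sites. The RefSeq promoter table (GRCm38.p6, 250 bases before to 50 bases after a start) held 8 of the 10 genes, in 11 windows. It held no window for Zmat3 and Trp53inp1. Each window was searched for perfect matches to the p53 consensus half-site, a decamer that reads the same on both strands, and for 2 such half-sites separated by 0 to 13 bases, called a full site here. A half-site was found for 5 of the 8 genes, against 9.55% of all 27025 genes with a window (8.36% of all 32851 windows). The full site was found for 1 of the 8, Cdkn1a, and in 24 of all windows (0.0731%). A pair with a mismatch in either decamer was not looked for, so the other genes may hold such a pair. For Ccng1 the decamer directly before the half-site differs from the consensus at 1 base. The matches are printed so that the letters of the half-sites (in capitals) can be compared between the genes, each 5′ to 3′ along its gene. Cdkn1a lies at chr17:29090729-29090978 on the plus strand, Trp53 at chr11:69580274-69580303 (plus), Mdm2 at chr10:117710925-117710954 (minus), Ccng1 at chr11:40755452-40755481 (minus) and Aen at chr7:78895927-78895956 (plus).
Cdkn1a: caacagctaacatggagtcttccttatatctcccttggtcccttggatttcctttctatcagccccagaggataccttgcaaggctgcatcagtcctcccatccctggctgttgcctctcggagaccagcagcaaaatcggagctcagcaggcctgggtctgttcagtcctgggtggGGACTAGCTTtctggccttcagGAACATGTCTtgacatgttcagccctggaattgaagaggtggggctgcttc
Trp53: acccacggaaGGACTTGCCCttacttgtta
Mdm2: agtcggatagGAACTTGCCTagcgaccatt
Ccng1: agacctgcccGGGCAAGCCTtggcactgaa
Aen: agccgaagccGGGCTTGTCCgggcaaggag
The 2 marked Cdkn1a half-sites begin 73 and 51 bases before the more upstream of the gene's 2 RefSeq starts, with 12 bases between them. That start lies 2790 bases before the other start, whose window held no half-site. Directly after the marked half-site nearer the start comes a decamer that differs from the consensus only at its 5′ base. It was left unmarked because only perfect matches were taken, and which of these decamers p53 binds was not tested. The windows of Phlda3, Eda2r and Gdf15 held no half-site. A match here is a description of the letters and not a measured binding site.

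Summed estimated counts ran from 24035559 to 36235773 per library. Levels are given as CPM, counts relative to the library size with TMM scaling, at which 1 count was worth 0.0269 to 0.0421 CPM. The target checked the labels. Scrib was at 177, 157 and 158 CPM with the Renilla hairpin in T91, T113 and T118 and at 29.7, 35.0 and 30.0 CPM with the Scrib hairpin, a log2 fold change of -2.38 (standard error 0.12, adjusted p of 0.00582 by edgeR's quasi-likelihood test). Epithelial markers summed to between 7383 and 12570 unscaled CPM, endothelial ones (5 genes) to at most 1.64, and acinar and endocrine ones (8 genes) to at most 1.99, with Ptf1a, Ins1 and Ins2 at 0 counts throughout. Fibroblast markers (8 genes, 2 of them tested) summed to 1.10 to 1.74 unscaled CPM with the Renilla and 1.41 to 7.61 with the Scrib hairpin, and blood cell markers (8 genes, 1 tested) to 3.44 to 4.67 and 2.38 to 6.20. The highest fibroblast and blood cell sums were both in the T91 library with the Scrib hairpin. Lum, a fibroblast marker, was at 0 counts in every library.

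Trp53 itself was scarce in every library. Trp53 (ENSMUSG00000059552, plus strand of chromosome 11, 69580359 to 69591873 in GRCm38) stood at 4.76 and 4.25 CPM in T91 (Renilla, then Scrib hairpin), 4.26 and 3.19 in T113, and 3.31 and 3.92 in T118. These values rest on 97 to 158 counts per library. The log2 ratio of Scrib to Renilla hairpin was -0.16 in T91 (95% interval for counting error only, -0.55 to 0.21). It was -0.42 in T113 (-0.79 to -0.04) and 0.24 in T118 (-0.17 to 0.65). The ranges of the 2 hairpins overlapped, with 4.11 ± 0.736 CPM in control and 3.78 ± 0.541 in knockdown libraries (SD, n = 3 each). The log2 fold change for the Scrib hairpin was -0.12 (standard error 0.22, 95% interval -0.63 to 0.40, adjusted p of 0.922 by edgeR), and the lines gave an adjusted p of 0.625 by edgeR's F-test on both line terms. The interval spans changes in either direction, so the data do not show that the level was the same.

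Per kilobase of annotated exon, Trp53 had the lowest mean of the 9 genes tested, at 0.976 CPM per kb (0.788 to 1.18 over the 6 libraries), the 21.05th percentile of all tested genes. The length merges the exons of all annotated transcripts of a gene (4045 bases for Trp53). It can exceed that of the transcripts present, so the ranks between genes depend on it. The median tested gene had 5.48 CPM per kb. Of the 31-base stretches in Trp53 transcripts, 10.2% also occur in other genes, and the largest share of these in the processed pseudogene Trp53-ps, which was listed at 0 counts in each library. No annotated gene overlaps Trp53. Above it in per-length level came Zmat3 at 2.25 CPM per kb, Trp53inp1 at 2.68, Gdf15 at 3.92 and Phlda3 at 4.28. The higher ones were Aen at 7.55, Cdkn1a at 8.05, Mdm2 at 12.3 and Ccng1 at 19.2. In that order, the ranges of neighbours over the 6 libraries overlapped from Zmat3 to Mdm2, while Trp53 lay wholly below Zmat3 and Ccng1 wholly above Mdm2. The wide range of Trp53inp1 (0.56 to 4.96 CPM per kb) reached below that of Trp53.

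**Figure D1:**
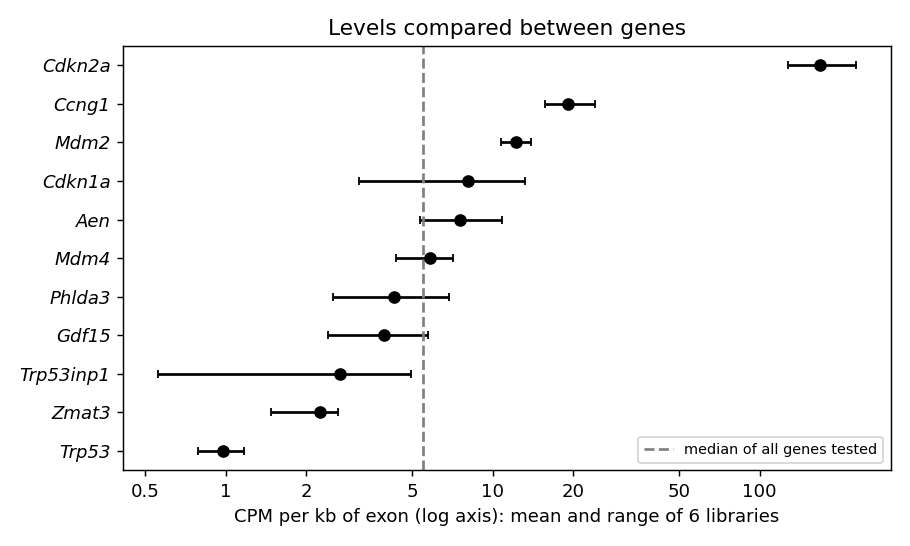
Level per kilobase of exon (CPM per kb, log axis) for the 9 tested genes and for the regulators Mdm4 and Cdkn2a; points are means and bars the range over the 6 libraries, and the dashed line is the median of all tested genes. Trp53 is lowest at 0.976 CPM per kb and Cdkn2a, at 168, lies above all the others.

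The arrest gene Cdkn1a was far lower with the Scrib hairpin in T113 and T118 but not in T91. Cdkn1a (ENSMUSG00000023067, plus strand of chromosome 17, 29090976 to 29100727) stood at 21.9 and 24.2 CPM in T91 (Renilla, then Scrib hairpin), 46.9 and 20.7 in T113, and 46.8 and 11.2 in T118. In the controls T113 and T118 were thus near each other and T91 was the low line, whereas in knockdown libraries T91 was the high one. The ranges of the 2 hairpins overlapped. T91 gave a log2 ratio of 0.14 (95% interval -0.02 to 0.31), T113 one of -1.18 (-1.31 to -1.05) and T118 one of -2.06 (-2.25 to -1.88). Such intervals are exact binomial ones that cover counting error only, since a line was sampled once per hairpin. Over the 3 lines the log2 fold change was -1.03 (standard error 0.47, 95% interval -2.31 to 0.25), which did not pass edgeR's test (adjusted p of 0.776). Without T91 it was -1.60 (adjusted p of 0.0791), without T118 -0.53 (adjusted p of 0.9604). Part of Cdkn1a, 7.68% of its exon bases, overlaps AC167363.2 on the other strand, and since no strand setting is stated, reads of the 2 genes may not have been told apart.

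Trp53inp1, a p53-induced nuclear protein that takes part in stress responses and autophagy, had the widest spread of the 9. It stood at 15.8 and 14.5 CPM in T91, 32.1 and 17.0 in T113, and 20.95 and 3.62 in T118, on chromosome 4 (11156431 to 11174379, plus strand). The T118 library with the Scrib hairpin lay well below the others, with 99 counts, and the hairpin ranges overlapped. T91 gave a log2 ratio of -0.12 (-0.33 to 0.08), T113 one of -0.92 (-1.07 to -0.77) and T118 one of -2.53 (-2.85 to -2.22). The fitted log2 fold change was -1.14 (standard error 0.49, 95% interval -2.45 to 0.18) with an adjusted p of 0.772 by edgeR, the lowest among these genes. It was -1.63 without T91 (adjusted p of 0.438) and -0.53 without T118 (0.748).

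Gdf15, a secreted stress cytokine of the TGF-beta family that many stress pathways besides p53 induce, had ratios of both signs. It stood at 6.64 and 10.6 CPM in T91, 7.38 and 5.30 in T113, and 9.11 and 4.46 in T118, on chromosome 8 (70629393 to 70632456, minus strand). The knockdown library was thus the higher one in T91 and the lower one in both other lines. The log2 ratios were 0.68 (0.41 to 0.96), -0.48 (-0.77 to -0.19) and -1.03 (-1.35 to -0.71) in that order, and whether the lines differ in them was not tested, since each has 1 pair of libraries. Averaged over the lines the log2 fold change was -0.27 (standard error 0.33, adjusted p of 0.868 by edgeR), and it was 0.10 without T118 and -0.75 without T91.

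**Figure D2:**
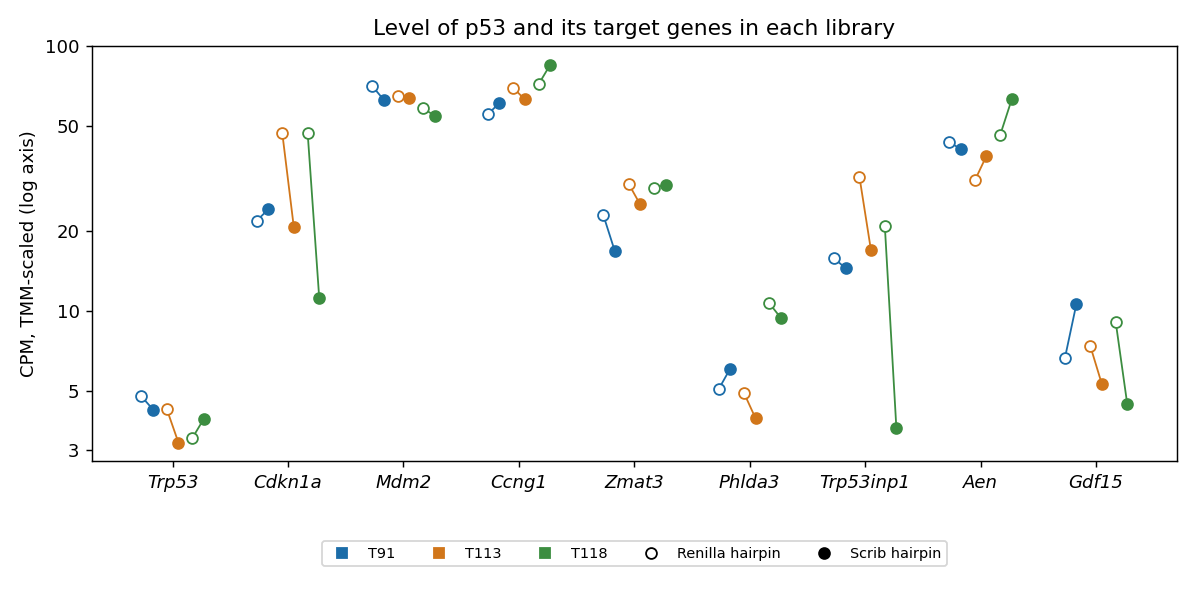
CPM (TMM-scaled, log axis) of the 9 tested genes in each library; colours are the lines, open points the Renilla hairpin, filled points the Scrib hairpin, and a segment joins the 2 libraries of a line. In T118 Cdkn1a is at 46.8 and 11.2 CPM and Trp53inp1 at 20.95 and 3.62, while all libraries have Mdm2 between 54.5 and 70.5 CPM.

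Mdm2, the ubiquitin ligase of the feedback loop, had the smallest error of the 9. It stood at 70.5 and 62.5 CPM in T91, 64.7 and 63.5 in T113, and 58.2 and 54.5 in T118, on chromosome 10 (117688875 to 117710758, minus strand). The knockdown library was the lower one in each line, by log2 ratios of -0.17 (-0.27 to -0.08), -0.03 (-0.11 to 0.06) and -0.10 (-0.20 to 0.01), of which those of T113 and T118 lay within counting error. Of all genes tested 30.2% had the same direction in 3 lines. The log2 fold change of Mdm2 was -0.10 (standard error 0.09, 95% interval -0.32 to 0.12, adjusted p of 0.836 by edgeR).

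Ccng1, which encodes cyclin G1, a p53-induced regulator that acts with the phosphatase PP2A, had the highest level per length of the 9. It stood at 55.2 and 60.9 CPM in T91, 69.6 and 62.8 in T113, and 71.6 and 84.8 in T118. Both T118 libraries were above the other 4, and the hairpin ranges overlapped. The log2 ratios of 0.14, -0.15 and 0.24 were small, each beyond counting error, and not of one sign. Its log2 fold change was 0.08 (standard error 0.11, 95% interval -0.19 to 0.34, adjusted p of 0.893).

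Zmat3, a zinc finger RNA-binding protein that carries part of the tumour suppressor activity of p53, stood at 23.1 and 16.9 CPM in T91, 30.2 and 25.3 in T113, and 29.1 and 29.9 in T118. It was lowest in T91, whose log2 ratio was -0.45 (-0.64 to -0.27). T113 gave -0.26 and T118 gave 0.04. The log2 fold change was -0.22 (standard error 0.13, 95% interval -0.52 to 0.08, adjusted p of 0.783 by edgeR). Zmat3 has 11435 annotated exon bases, and in T91 transcript length moved with the ratio. There the median log2 ratio was -0.25 for the longest 20% of tested genes (at least 7110 exon bases) and 0.21 for the shortest 20% (at most 1973), against -0.03 and 0.02 in T113 and 0.07 and -0.07 in T118. Gdf15, high in the T91 knockdown library, has 1852 exon bases. That library also had the highest fibroblast marker sum. The part of transcript length and of other cells in these ratios was not tested.

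Aen, an exonuclease that p53 induces during apoptosis, stood at 43.4 and 40.7 CPM in T91, 31.1 and 38.4 in T113, and 46.2 and 62.9 in T118. Of the 9 genes it had the highest log2 fold change, 0.22 (standard error 0.13, 95% interval -0.09 to 0.53, adjusted p of 0.783 by edgeR). Its log2 ratios of -0.09, 0.31 and 0.45 were opposite in sign to those of Cdkn1a in each line, in T91 within counting error. Phlda3, a pleckstrin homology protein that represses Akt, stood at 5.06 and 6.06 CPM in T91, 4.90 and 3.94 in T113, and 10.7 and 9.41 in T118. Its T118 libraries were above the other 4 with either hairpin. Its log2 fold change was -0.08 (standard error 0.18, 95% interval -0.53 to 0.36, adjusted p of 0.936).

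Eda2r, a TNF receptor family member (X chromosome, 97333840 to 97377216, minus strand), was all but undetected, with 1 count in T91 and 4 in T113 with the Renilla hairpin and 0 in the other 4 libraries. A count of 0 allows up to 3 counts, which is 0.0976 to 0.126 CPM in those libraries, so no difference was detectable at this depth.

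For the hairpins, 0 of the 9 genes tested passed edgeR's test (adjusted p from 0.772 to 0.936), against 0.00706% of all 14169 tested genes. At an unadjusted p under 0.05 edgeR gave 0 of the 9 (background 6.61%) and limma-voom 2 (Cdkn1a and Trp53inp1; background 7.10%), and at the adjusted threshold DESeq2 and limma-voom gave 0 as well (backgrounds 0.445% and 0.0565%). None of the 9 had hairpin groups that did not overlap (4.74% of all genes). The log2 fold change was below 0 for 7 of the 9, with a median of -0.12, against 51.8% and -0.01 for all genes tested. By line, 5 of the 9 were lower with the Scrib hairpin in T91 (49.9% of all genes), 8 in T113 (50.5%) and 5 in T118 (50.2%). A level lower by at least 2-fold was seen for 0 of the 9 in T91 (2.86% of all genes), 1 in T113 (Cdkn1a; 1.85%) and 3 in T118 (Cdkn1a, Trp53inp1 and Gdf15; 5.64%). No member was higher by at least 2-fold in any line (1.69%, 1.27% and 1.50%). In bulk RNA, fewer expressing cells and less RNA per cell cannot be told apart.

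**Figure D3:**
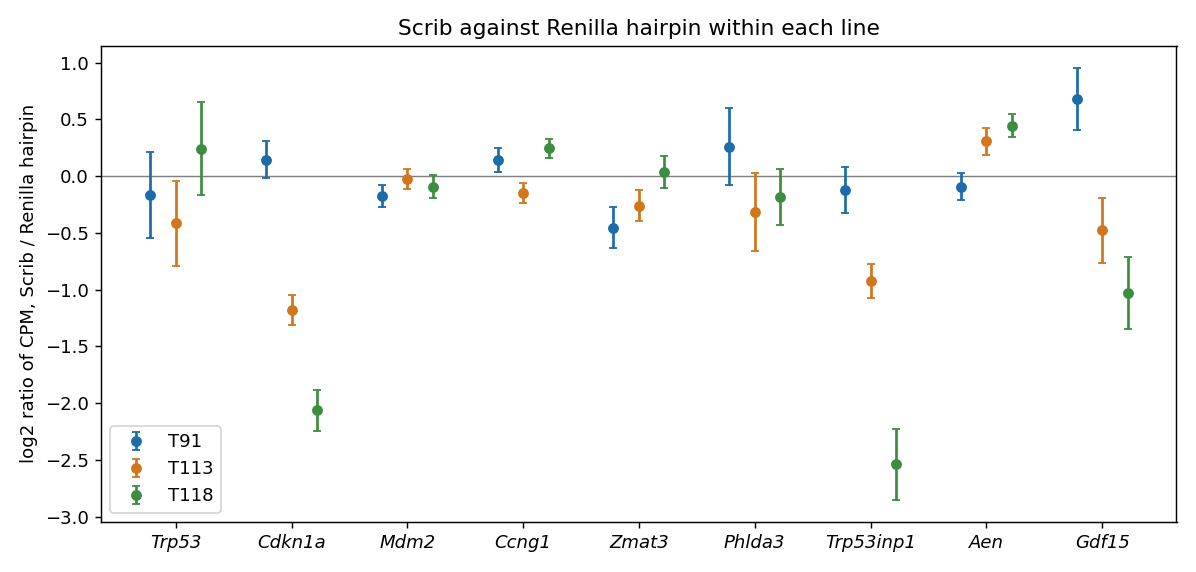
Log2 ratio of CPM, Scrib over Renilla hairpin, within each line (colours) for the 9 tested genes; bars are 95% intervals for counting error only. Cdkn1a, Trp53inp1 and Gdf15 spread widest, with T118 lowest (-2.06, -2.53 and -1.03), and Mdm2 lies between -0.17 and -0.03.

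**Figure D4:**
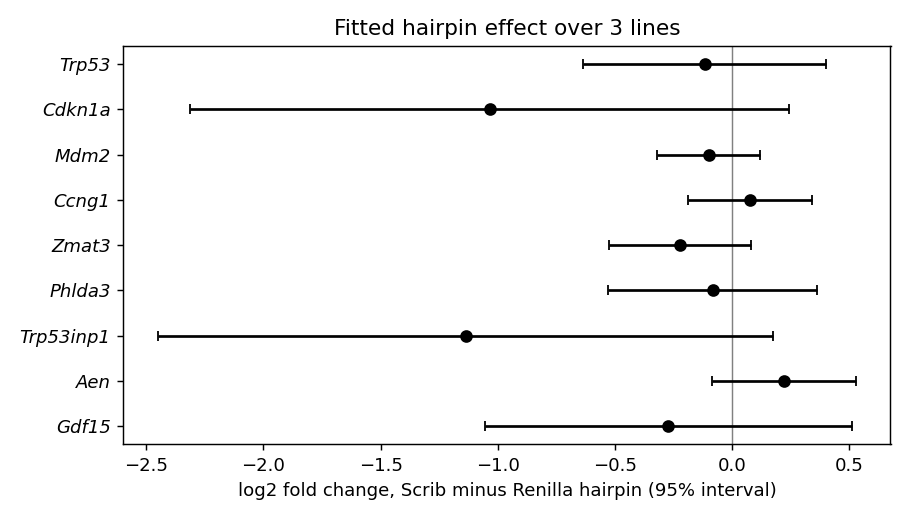
Log2 fold change for the Scrib against the Renilla hairpin over the 3 lines (points) with 95% intervals of the edgeR fit. Every interval includes 0, and those of Cdkn1a (-2.31 to 0.25) and Trp53inp1 (-2.45 to 0.18) are the widest.

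Between the lines, 1 of the 9 genes passed edgeR's F-test (11.1%, against 14.0% of all genes tested), a share near the background. That gene was Phlda3 (adjusted p of 0.0319), with mean levels of 5.56 (T91), 4.42 (T113) and 10.0 CPM (T118). Phlda3 was higher in T118 than in T113 by a log2 fold change of 1.18 (standard error 0.23, adjusted p of 0.0263 for this contrast by edgeR, background 10.2%), while T118 against T91 gave 0.85 (0.23, adjusted p of 0.0647, background 1564 of 14169 genes or 11%) and T113 against T91 -0.33 (0.23, adjusted p of 0.489, background 6.06%). Phlda3 no longer passed the F-test without the Renilla (adjusted p of 0.0949, 8.76% of all genes called) or the Scrib (0.141, 9.0%, that is 1315 of 14618 genes) library of T113. Aen (adjusted p of 0.0816), Zmat3 (0.0958) and Ccng1 (0.164) came next. Aen ran from 34.8 CPM in T113 over 42.0 in T91 to 54.6 in T118, Zmat3 from 19.98 in T91 over 27.7 in T113 to 29.5 in T118, and Ccng1 from 58.0 in T91 over 66.2 in T113 to 78.2 in T118. Neighbours in these orders did not pass the pairwise tests (adjusted p from 0.160 for Zmat3, T113 against T91, to 0.729 for Zmat3, T118 against T113), nor did the outer lines (0.0506 for Aen, 0.0654 for Zmat3 and 0.102 for Ccng1). Each line has 1 library per hairpin, so the error in these tests includes hairpin effects that differ between lines. The lines also differ in passage, and T91 in sex, which cannot be told apart from the line. The calls between lines moved with the setting, and so did the calls over all genes. Without the Renilla library of T91 the F-test called 4 of the 9 (Zmat3, Phlda3, Aen and Gdf15), where it called 29.8% of all genes. Without that of T118 it also called 4 (Zmat3, Phlda3, Aen and Trp53inp1, the last with an adjusted p of 3.88e-05 against 0.399 with all 6 libraries), beside 21.3% of all genes. Leaving out the Scrib library of T91 gave 2 (Phlda3 and Aen; 24.9% of all genes) and that of T118 gave 1 (Phlda3; 17.7%). DESeq2 called 2 of the 9 (18.7% of all genes), and edgeR with no low-count filter 3 of 10 (10.8%).

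No line was high for all targets. Of the 8 targets tested, the highest mean over both hairpins was in T118 for 4 (Ccng1, Zmat3, Phlda3 and Aen). It was in T91 for 2 (Mdm2 and Gdf15) and in T113 for 2 (Cdkn1a and Trp53inp1). Only for Ccng1, Phlda3 and Aen were both libraries of the highest line above all others. For the rest the order depended on the hairpin or on overlapping values. With the Renilla hairpin alone Gdf15 was lowest in T91 (6.64 CPM), and with the Scrib hairpin Cdkn1a was highest there (24.2 CPM). The RNA levels of the targets did not closely follow that of Trp53 either. Across the 6 libraries Pearson's r between the log2 CPM of Trp53 and of a target ran from -0.35 (Ccng1) to 0.51 (Mdm2). These r are a description over libraries that share lines. Trp53 had 97 to 158 counts per library, so counting error can weaken them, and p53 protein or its activity was not measured. Cdkn1a and Trp53inp1 were the pair most alike among targets, with r of 0.897, and Trp53inp1 and Aen the most opposed, with -0.904. Similar levels over the 6 libraries were looked for among 10027 genes with a mean log2 CPM of at least 2. Most like Cdkn1a were Car5b (r of 0.986), Tmem179b (0.985) and Slc37a1 (0.981). Most like Trp53 were Rnf19a (0.958), Stau2 (0.957) and Hbs1l (0.956). As the highest of so many values over 6 libraries, such r can arise by chance, and shared regulation was not tested.

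Other known p53 targets were read from 4 lists of 56 genes in all, of which 53 were tested. For the hairpins 0 of the 53 passed edgeR's test, and 3 higher and 4 lower ones had an unadjusted p under 0.05 (backgrounds 1.55% and 5.06%). DESeq2 and limma-voom also called 0. The median log2 fold change was -0.03. Leaving out T91 gave 2 calls of the 53 (background 0.654%), both lower with the Scrib hairpin: Pmaip1 and Ccng2.

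Among the growth arrest and feedback genes, 9 of 12 had a log2 fold change below 0 and 0 passed, and the median log2 ratio was 0.19 (T91), -0.22 (T113) and -0.47 (T118). Ccng2, a cyclin linked to cell cycle exit, stood at 38.7 and 37.1 CPM in T91, 56.7 and 31.6 in T113, and 41.7 and 20.5 in T118, so that its 2 hairpin groups did not overlap. Its log2 fold change was -0.64 (standard error 0.19, adjusted p of 0.712 by edgeR) and -0.93 without T91 (adjusted p of 0.0161). Mxd4, a Max-binding repressor, had a log2 fold change of -0.64 (0.21, adjusted p of 0.744). The phosphatase gene Ptp4a3 had one of 0.20 (0.13, adjusted p of 0.789). In T118 the DNA damage gene Gadd45a stood at 12.0 CPM in control and 4.17 in the knockdown library, against 20.9 and 27.5 in T91. Ccng2, Mxd4, Gadd45a and Btg2, an antiproliferative gene at 42.7 and 12.4 CPM in T118, were 4 of the 8 genes out of 53 that were lower by at least 2-fold in that line (5.64% of all genes). T91 had 1 such gene of 53 (2.86% of all genes) and T113 had 1 (1.85%), shares near the background. Btg2 was named after its values were seen.

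The cell death genes gave a median log2 fold change of -0.03, with 5 of 11 above 0 and 0 past the test. Pmaip1, which encodes the BH3-only protein Noxa, stood at 42.2 and 51.9 CPM in T91, 80.1 and 49.2 in T113, and 52.6 and 31.8 in T118. Like Cdkn1a it was lower with the Scrib hairpin in T113 and T118 and not in T91, with a log2 fold change of -0.38 (standard error 0.21, adjusted p of 0.783) that was -0.71 without T91 (adjusted p of 0.0209). Bid, a BH3-only protein gene, had a log2 fold change of 0.26 (0.10, adjusted p of 0.748) and Siva1 one of 0.23 (0.09, adjusted p of 0.748), both higher in each line. The Fas gene was not tested, with at most 3 counts in a library.

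Genes of repair and metabolism were near 0, with a median log2 fold change of -0.02 and 8 of 15 below 0. Polk, a translesion DNA polymerase, had -0.27 (standard error 0.13, adjusted p of 0.772 by edgeR), the ribosomal protein paralog Rps27l 0.18 (0.10, adjusted p of 0.783) and Tigar, a fructose bisphosphatase that slows glycolysis, 0.18 (0.12, adjusted p of 0.794). In the last list, of signalling and other targets, 11 of 15 were below 0 and the median was -0.04. Sulf2, a heparan sulphate sulphatase, had -0.46 (0.15, adjusted p of 0.744), Psrc1, a spindle protein, 0.30 (0.11, adjusted p of 0.748) and Tsc22d1 -0.32 (0.16, adjusted p of 0.780).

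**Figure D5:**
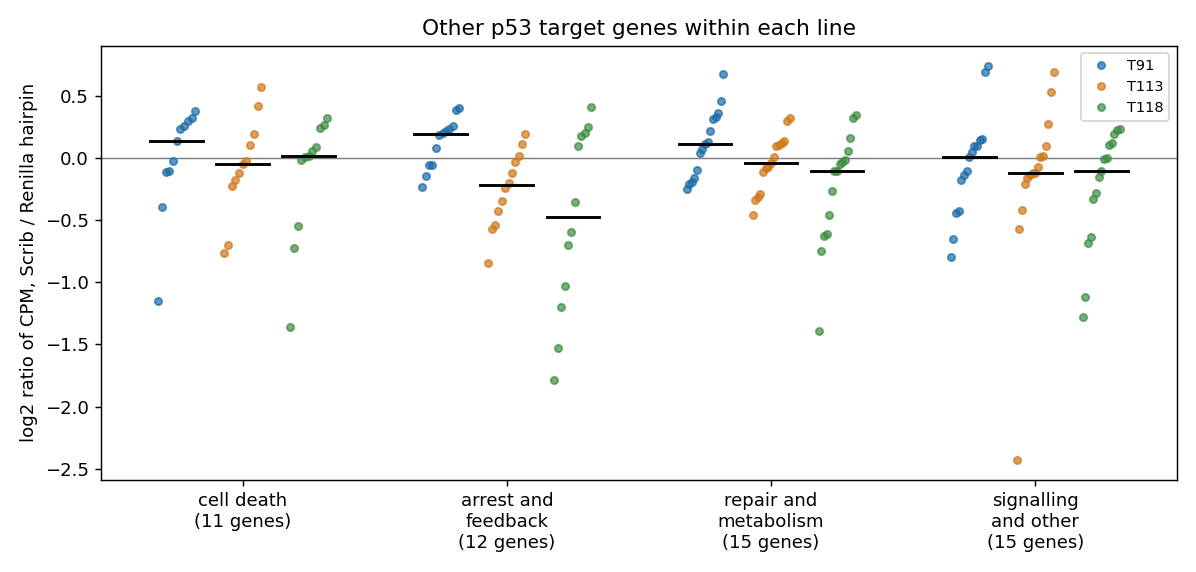
Log2 ratio of CPM, Scrib over Renilla hairpin, for the 53 other p53 targets tested, by list and line (colours); each point is 1 gene and black bars are medians. The arrest and feedback genes have medians of 0.19 (T91), -0.22 (T113) and -0.47 (T118), and the other 3 lists lie nearer to 0.

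Between the lines 9 of the 53 other targets passed the F-test (17.0%, against the 14.0% of all genes), and no one line was highest in all 9. Sulf2 had the smallest p, with means of 24.7 CPM in T91, 3.44 in T113 and 11.6 in T118 (adjusted p of 0.00125 by edgeR). Gls2, a mitochondrial glutaminase, followed with 8.79, 5.71 and 15.1 CPM (adjusted p of 0.00816). The death receptor gene Tnfrsf10b stood at 36.4, 36.9 and 57.6 CPM (adjusted p of 0.0160), and Bid at 55.5, 34.7 and 35.1 (0.0190). T118 was the highest line for Tnfrsf10b, Gls2 and Slc19a2, T91 for Bid, Sesn2, Sulf2 and Psrc1, and T113 for Polk and Trp53i11, a gene named after its values were seen. Apaf1 (adjusted p of 0.0518), Tigar (0.0711), Gadd45a (0.121) and Ptp4a3 (0.179) did not pass. The count ran from 3 without either T113 library to 20 without the Renilla library of T91, 18 without the Scrib library of T91 and 16 without the Renilla library of T118, fits whose shares over all genes are given above.

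Upstream of p53, Cdkn2a was abundant in each library. It stood at 206 and 268 CPM in T91 (Renilla, then Scrib hairpin), 181 and 150 in T113, and 213 and 164 in T118, and its 168 CPM per kb put it at the 98.16th percentile. Its products p16 and Arf share exons and were not separated by the gene-level counts. The log2 ratios of 0.38, -0.27 and -0.37 had the same signs as those of Gdf15, Pmaip1 and other genes above, with a log2 fold change of -0.09 (standard error 0.16, adjusted p of 0.917 by edgeR). Cdkn2a has 1172 exon bases, which puts it among the shortest 20% of tested genes, whose median log2 ratio in T91 was 0.21. The part of length in its T91 ratio was not tested. Mdm4, the partner of Mdm2 that inhibits p53, stood at 97.5 and 64.2 CPM in T91, 105 and 92.1 in T113, and 73.7 and 82.7 in T118 (log2 fold change -0.21, standard error 0.15, adjusted p of 0.805). It has 14798 exon bases and its lowest ratio was in T91. There the longest 20% of tested genes had a median log2 ratio of -0.25, though not every long gene was lower. The part of length in the Mdm4 ratio was not tested. The relatives of p53 were near absent, with 0 to 7 counts per library for Trp63 and 0 or 1 for Trp73.

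Of 19 regulators tested (21 listed), 0 passed for the hairpins by edgeR, DESeq2 or limma-voom, and edgeR gave 1 at an unadjusted p under 0.05, a share near the 6.61% of all genes. That was Wrap53, the neighbour of Trp53 on the opposite strand, with a log2 fold change of 0.24 (standard error 0.10, adjusted p of 0.753) and ranges of 24.1 to 27.8 and 28.2 to 33.1 CPM that did not overlap. The ribosomal protein gene Rpl11, whose free protein binds Mdm2, had 0.17 (0.10, adjusted p of 0.789), and the acetyltransferase gene Ep300 -0.21 (0.14, adjusted p of 0.797). Ep300, with 14273 exon bases, was like Mdm4 lowest in ratio in T91 (-0.57), and the part of length in this was not tested. Between the lines 0 of the 19 passed by edgeR (background 14.0%), and DESeq2 gave 1. Leaving out the Renilla library of T91 gave 7, that of T118 gave 3, the Scrib library of T91 gave 2 and that of T118 gave 1, again in fits that called more of all genes. The kinase gene Hipk2 was nearest, with means of 19.6 CPM in T91, 28.5 in T113 and 11.02 in T118 (adjusted p of 0.0875), followed by the DNA-dependent kinase gene Prkdc (0.127) and Trp53bp1 (0.140).

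Cell cycle genes that p53 lowers through p21 and the DREAM repressor complex were slightly above 0. All 16 listed were tested and had a log2 fold change above 0, with a median of 0.19, against 48.2% of all genes above 0. By edgeR, DESeq2 and limma-voom 0 passed, and edgeR gave 4 higher ones at an unadjusted p under 0.05 (background 1.55%). By line, 16 of 16 were higher with the Scrib hairpin in T113 and in T118 (median log2 ratios of 0.23 and 0.28) and 9 of 16 in T91 (0.07). Whether this goes with the level of Cdkn1a was not tested. Genes of this list tend to move together with the cell cycle, so their shared sign is not 16 separate observations. Birc5, which encodes survivin, stood at 134 and 164 CPM in T91, 125 and 148 in T113, and 137 and 163 in T118 (log2 fold change 0.26, standard error 0.09, adjusted p of 0.744). Cdc20, the activator of the anaphase-promoting complex, had 0.25 (0.09, adjusted p of 0.745), and the phosphatase gene Cdc25c 0.24 (0.09, adjusted p of 0.748). Between the lines Cdc20 had an adjusted p of 0.0790, Cdc25c one of 0.146 and the kinesin gene Kif23 one of 0.387.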

How the data were processed

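What the authors deposited is a table of estimated counts for every library, by Ensembl gene and unscaled. Salmon 1.4.0, DESeq 2 and the build GRCm38 are named in the submitters' processing notes. No annotation, strand setting or trimming is given in the sources used here. Counts were rounded to whole numbers, and symbols, positions and exon lengths came from GENCODE M21 (54200 of 54453 identifiers matched). filterByExpr (minimum count 10) left 14169 genes, which were fitted with edgeR 4.0.16 in R 4.3.3 (TMM, robust quasi-likelihood) with terms for line and hairpin, two-sided, with Benjamini-Hochberg adjustment over all of them at 0.05. The design leaves 2 residual degrees of freedom. The 2 libraries of a line come from the same organoid line, which is where the pairing comes from, and their deviations from the hairpin means correlated at 0.621 to 0.666. Libraries of a hairpin are different tumour lines, and no line was repeated within a hairpin. The fit was tested on simulated data with known fold changes. A gene changed by the hairpin was given the same fold in every line. Hairpin effects that differ between lines, as the ratios of Cdkn1a do, were thus not simulated. The simulation does not say how often such a gene would be called. The simulated fold changes were recovered, genes with an unadjusted p under 0.05 were counted for each true fold change, and the adjusted calls held some false ones.

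Settings tried besides were DESeq2 size factors, other filters, DESeq2 1.42.0, limma-voom (limma 3.58.1), dropping the line or hairpin term and leaving out lines or libraries. Members and lists were chosen with earlier results of these data known. All members and Scrib are named, with up to 3 genes per list and comparison by smallest p (mean log2 CPM of at least 2), 5 regulators, and the 3 genes most correlated with Trp53 and with Cdkn1a.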

Additional observations from a re-analysis of the deposited data

Results flagged for a closer look

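Each line has 1 pair of libraries, so a difference between lines in the hairpin effect could not be tested. Members were singled out where the counting intervals of 2 lines lay on opposite sides of 0. For Gdf15 the log2 ratio in T91 was above that in T113 by 1.16 and above that in T118 by 1.71, and neither difference was tested. For Ccng1 the log2 ratio in T91 was above that in T113 by 0.29 and the one in T118 above that in T113 by 0.39, again not tested.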

How the results depend on the processing

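Under every setting run, 0 members passed for the hairpins, and Scrib stayed past the threshold (-2.48 to -2.28 with a line left out). Without the replicate block, that is without the line term, Scrib had a log2 fold change of -2.38 and 0 members, other targets, regulators and cell cycle genes passed, so the pairing changed no call. Leaving out a line moved the other targets called for the hairpins from 0 to 2, and turned the sign of Trp53 (-0.29 to 0.041), Ccng1 (-0.0075 to 0.20), Phlda3 (-0.25 to 0.035) and Gdf15 (-0.75 to 0.10), none of them called. Over all genes the hairpin test called 1, but 64 with no low-count filter, 63 with DESeq2, 8 with limma-voom and 9 to 94 with a line left out. Between lines the calls depended on the setting. Members called were 1, but 3 with no low-count filter, 2 with DESeq2, and 0 to 4 with a library left out; other targets were 9, but 16 with no filter, 15 with DESeq2 and 3 to 20 with a library left out; regulators were 0, but 1 with no filter, 1 with DESeq2 and 0 to 7 with a library left out. The share of all genes called moved too: 14.0%, but 10.8% with no filter, 18.7% with DESeq2 and 8.76% to 29.8% with a library left out. The cause was not tested. Depth limits Eda2r, Trp63 and Trp73, and for Trp53 the counting error is a large part of each within-line ratio. Only in T113 did the counting interval of Trp53 exclude 0.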
